A study of Mus musculus with 2 samples.

Results

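The mouse miRNAs mmu-miR-199a-3p, mmu-miR-199a-5p and mmu-miR-214, written below without the species prefix, are the products of the miRNA genes carried by the noncoding transcript Dnm3os, and they were followed here in the mouse tongue primordium at embryonic day E11.5 and at E10.5. They were chosen by name, as every array probe assigned to 1 of the 3 names, which gave 3 of the 1080 miRNAs on the array, with 6 of its 2780 probes and 120 of its 43200 miRNA spots. Each stage is 1 pool of total RNA from 40 ICR embryos, taken from the medial region of the mandibular arch and hybridised to 1 Cy3-labelled array, so there are 1 E11.5 array and 1 E10.5 array. ICR is an outbred strain without an engineered allele in the labels, and neither pool was treated. With 1 array per stage no difference between the stages could be tested. Errors are the standard deviation (SD) among the spots of a probe, or its standard error (SE), and they say nothing of the variation between pools.

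Dnm3os is transcribed antisense to Dnm3, a dynamin gene, in limb, craniofacial and trunk mesenchyme of the embryo, and it is the host transcript of Mir199a-2 and Mir214. Mice that lack Dnm3os have skeletal defects and grow poorly, and Twist1, a basic helix-loop-helix factor of mesenchyme, is known to act on this locus through an E-box. miR-214 is known to target the Polycomb subunit Ezh2 in skeletal muscle cells and the Hedgehog regulator Sufu in zebrafish, and miR-199a-5p is linked to hypoxia signalling through Hif1a. The array read RNA of the whole tissue piece, so which cells held the miRNAs was not measured, and fewer cells of a type and less of a miRNA per cell cannot be told apart in it.

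The precursors of the Dnm3os cluster are given first because each member is 1 arm of 1 of them. The sequences are RefSeq's (GRCm38.p6), written 5′ to 3′, and both mature arms are in capitals. The 5p arm comes first in each.
Mir199a-2: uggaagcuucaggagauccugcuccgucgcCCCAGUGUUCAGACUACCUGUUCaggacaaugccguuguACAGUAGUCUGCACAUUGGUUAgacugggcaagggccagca
Mir214: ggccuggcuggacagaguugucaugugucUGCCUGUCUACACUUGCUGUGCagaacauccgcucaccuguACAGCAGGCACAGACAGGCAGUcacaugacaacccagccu
The precursors lie at chr1:162217814-162217923 and chr1:162223368-162223477 on the plus strand, within the span of both Dnm3os and Dnm3 in the RefSeq gene table. In the array's own annotation (mm9), the targets of the miR-199a probes on chromosome 1 run from 164147979 to 164148035 and those of the miR-214 probes from 164153579 to 164153590, with 5543 bases between them.

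The 3 mature sequences show which family each member can act with, since targets are mainly chosen by the seed, bases 2 to 8, which is in capitals. The 3 seeds differ from each other.
miR-199a-3p: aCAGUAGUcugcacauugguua
miR-199a-5p: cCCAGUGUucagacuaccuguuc
miR-214: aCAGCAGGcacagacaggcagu
miR-761: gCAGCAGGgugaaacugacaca
miR-214 is miR-214-3p in RefSeq and shares its seed with miR-761, the only other of 1679 mature mouse names in the RefSeq table with that seed. The seed of miR-199a-3p is shared there only with miR-199b-3p, which has the same full sequence, and that of miR-199a-5p with no other name in the table. The complete miR-199a-3p sequence stands in 3 precursors (Mir199a-1, Mir199a-2 and Mir199b), miR-199a-5p in 2 (Mir199a-1 and Mir199a-2) and miR-214 in 1 (Mir214). Mir199a-1 lies on chromosome 9 within the span of Dnm2 and Mir199b on chromosome 2 within that of Dnm1, so of the 3 members miR-214 alone is read from the Dnm3os locus by sequence.

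The probes are shown because their length and position decide which of these RNAs a value can hold. Each is the complement of the 3′ end of its target, so its first base pairs with the last base of the miRNA. In the miR-199a-5p and miR-199b* probes the capital marks the base at which these probe sets differ, G14A counted from the probe's 5′ end with the miR-199a-5p probe's base first.
miR-199a-3p, 20 bases: taaccaatgtgcagactact
miR-199a-3p, 19 bases: taaccaatgtgcagactac
miR-199a-5p, 19 bases: gaacaggtagtctGaacac
miR-199a-5p, 18 bases: gaacaggtagtctGaaca
miR-214, 13 bases: actgcctgtctgt
miR-214, 12 bases: actgcctgtctg
miR-199b*, 22 bases: gaacaggtagtctAaacactgg
miR-199b*, 21 bases: gaacaggtagtctAaacactg
The array's annotation gives the miR-199a-3p probes to miR-199a-3p and to miR-199b together, with targets on chromosomes 1, 2 and 9. The miR-199a-5p probes have targets on chromosomes 1 and 9, and the miR-214 probes on chromosome 1 only. The miR-214 probes cover bases 10 to 22 and 11 to 22 of the miRNA, outside the seed. Neither has an exact match in another mature sequence of the RefSeq table, and the 12-base probe has 1 match with a single mismatch, miR-7018-5p.

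All 6 member probes were detected at both stages, with every kept spot well above background, and none was saturated. Spots with an outlier flag were left out, which took 0 to 4 of the 20 spots of a probe on an array. Over the whole E11.5 array 199 miRNAs (18.4%) were detected, and over the E10.5 array 144 (13.3%). Negative control spots averaged 5.99 ± 4.87 at E11.5 and 7.98 ± 5.10 at E10.5 (SD over 968 and 962 spots).

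miR-199a-3p, the 3p arm of the miR-199a precursors, was the brightest miRNA on both arrays. Its 20-base probe had a processed intensity of 10573 ± 235 at E11.5 (SD, 19 spots), against 3976 ± 87.3 at E10.5 (18 spots). Its 19-base probe had 6125 ± 167 at E11.5 (16 spots), against 2356 ± 43.2 at E10.5 (19 spots). The spots of the 2 stages did not overlap for either probe: those of the 20-base probe ran from 10177 to 11046 at E11.5 and from 3819 to 4121 at E10.5. Unscaled, the 2 probes were 2.66-fold and 2.60-fold brighter at E11.5.

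miR-214, the 3p arm of Mir214, was also among the brightest. Its 13-base probe had 4507 ± 175 at E11.5 (SD, 19 spots) and 1732 ± 57.3 at E10.5 (20 spots). Its 12-base probe had 2098 ± 84.8 at E11.5 (20 spots) and 801 ± 24.2 at E10.5 (19 spots). Both probes were brighter at E11.5, by unscaled mean folds of 2.60 and 2.62. Most other miRNAs were brighter on the E11.5 array too.

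miR-199a-5p, the opposite arm of the miR-199a precursors, had the widest gap between its probes. The 19-base probe had 3061 ± 141 at E11.5 (SD, 19 spots) and 1013 ± 30.6 at E10.5 (18 spots). The 18-base probe, shorter by its last base, had 402 ± 26.0 at E11.5 (17 spots) and 133 ± 11 at E10.5 (20 spots). Both were brighter at E11.5 by nearly equal unscaled folds, 3.02 and 3.02, although they differ by 1 base in length and stand far apart in intensity on either array. An intensity therefore depends on the probe as well as on the miRNA, and the ranks below are ranks of signal, not of molecules.

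**Figure D1:**
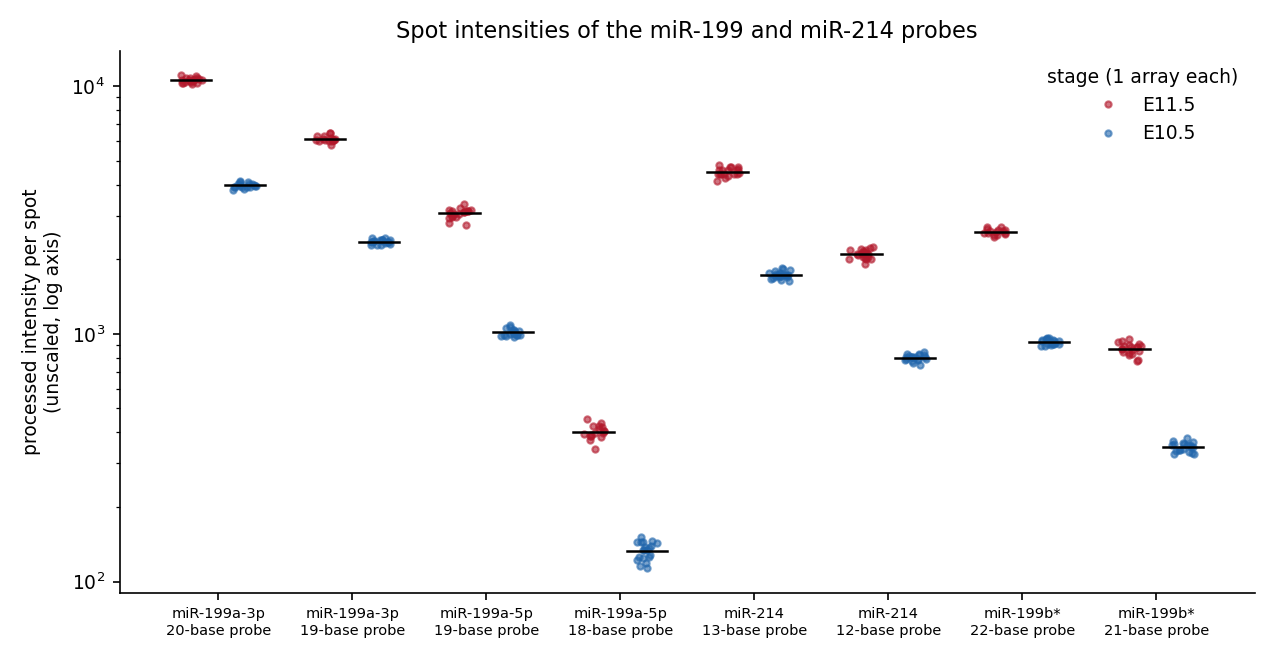
Processed intensity of every kept spot (unscaled, log axis) for the 2 probes each of miR-199a-3p, miR-199a-5p, miR-214 and miR-199b*, with E11.5 left of E10.5 in each pair and the mean as a bar. For every probe shown the E11.5 spots lie above the E10.5 spots, on an array that was brighter for most miRNAs. The step between the stages is much the same at 8 very different brightnesses.

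Levels were ranked within each array by the mean intensity over a miRNA's detected probes. miR-199a-3p held rank 1 at E11.5 (level 8349 ± 34.1, SE over spots) and rank 1 at E10.5 (3166 ± 11.4). It was 2.35-fold brighter than the next miRNA at E11.5, miR-125b-5p, and 1.77-fold brighter than the next at E10.5, miR-92a of the Mir17 cluster. Its level was 71.6 times the median detected miRNA at E11.5 and 38.6 times at E10.5.

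miR-214 held rank 3 at E11.5 (3302 ± 22.2) and rank 5 at E10.5 (1266 ± 6.99). At E11.5 it lay between miR-125b-5p (3560 ± 29.8) and miR-130a (2491 ± 18.2), and at E10.5 between miR-20a (1475 ± 5.06) and miR-130a (1145 ± 4.82), with each gap over 6 times its spot SE. miR-199a-5p held rank 7 at E11.5 (1732 ± 16.5) and rank 13 at E10.5 (573 ± 3.81). It could not be told from miR-199b* (1727 ± 11) just below it at E11.5, nor from miR-130b (575 ± 3.68) just above it at E10.5, since both gaps were smaller than their spot SE. The next brighter miRNA at E11.5 was miR-92a (1937 ± 13.4), and the next dimmer one at E10.5 was miR-25 (435 ± 3.20).

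The order of the 3 members by signal was the same at both stages, with miR-199a-3p first, then miR-214, then miR-199a-5p. All 3 stood among the 7 brightest of 199 miRNAs at E11.5 and among the 13 brightest of 144 at E10.5. The total gene signal, the scanner software's own sum over a miRNA's probes, gave them the same ranks on each array. By that measure the 3 members made up 21.9% of the summed signal of the 169 miRNAs called detected on both arrays at E11.5 and 18.1% at E10.5. miR-199a-3p held 13.7% at E11.5 and 11.48% at E10.5, miR-214 5.40% and 4.59%, and miR-199a-5p 2.83% and 2.08%, E11.5 first. These are shares of fluorescence and carry each probe's own response.

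**Figure D2:**
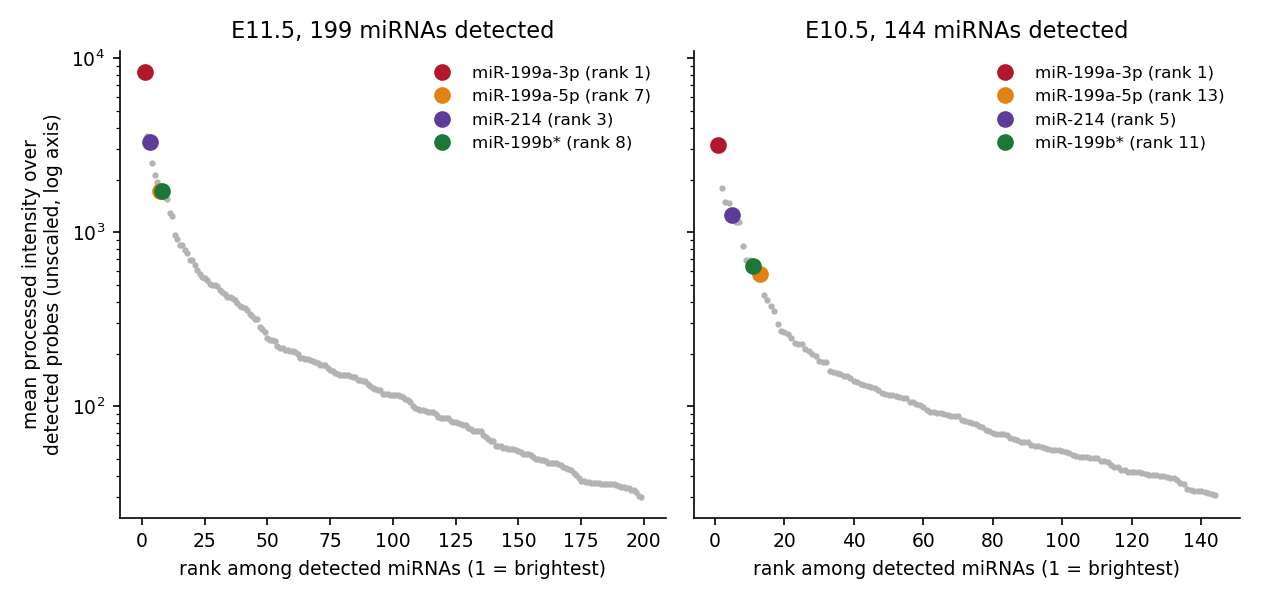
Mean processed intensity over detected probes (unscaled, log axis) against rank for all miRNAs detected at E11.5 (left) and at E10.5 (right). miR-199a-3p is at rank 1 in both panels, miR-214 at ranks 3 and 5, miR-199a-5p at 7 and 13, and miR-199b* at 8 and 11.

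The comparison of the stages asks whether the 3 miRNAs gained or lost ground while myoblast differentiation begins in the tongue primordium, which is the window the series was designed around. Scaled on the probes that both arrays detected, all 3 differed by less than 2-fold between the stages, and the size of the difference depends on that choice. The E11.5 array was brighter for most miRNAs, so the intensities of each array were scaled to their 75th percentile, taken over the 218 probes that both arrays detected, which took 1.31 off each log2 difference. Scaled log2 differences, E11.5 minus E10.5, were 0.08 ± 0.0078 for miR-199a-3p, 0.28 ± 0.020 for miR-199a-5p and 0.07 ± 0.012 for miR-214 (SE over spots, 2 probes each), or 1.06-fold, 1.21-fold and 1.05-fold. The median over the 137 miRNAs detected on both arrays was -0.07, with a range from -1.59 to 2.70 and quartiles at -0.74 and 0.30.

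Of the 3 members 3 were above 0, where 47.4% of the 137 miRNAs were. None of the 3 was at least 2-fold apart between the stages, where 17.5% of the 137 were (3.65% higher and 13.9% lower at E11.5). Without scaling all 3 were over 2-fold brighter at E11.5, with log2 differences from 1.38 to 1.59, as were 64.2% of the miRNAs, so an unscaled 2-fold difference does not set the members apart. With the 75th percentile over every probe the log2 differences of miR-199a-3p, miR-199a-5p and miR-214 were 1.30, 1.50 and 1.29, all 3 past 2-fold, and with the control probes they were 0.90, 1.1 and 0.89, with 1 past 2-fold. The direction of miR-199a-3p and miR-214 changed with the detection rule, the signal measure and the filter: both lay slightly below 0 when a probe had to be well above background in every spot (-0.045 and -0.055), with the total gene signal (-0.063 and -0.079), and without the dimmest 25% of the miRNAs (-0.00068 and -0.011). miR-199a-5p lay above 0 under each alternative, from 0.13 to 1.59.

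A member's distance from the median over all miRNAs cannot be moved by scaling with 1 factor, although the median itself moves. On the log2 scale miR-199a-3p stood 0.15 above that median, miR-199a-5p 0.35 above it and miR-214 0.14 above it. Settings that change which miRNAs are compared or the shape of the values moved these distances. In the same order of members they were 0.0098, 0.21 and 0 without the dimmest 25% of the miRNAs, where miR-214 was itself the median, and 0.23, 0.43 and 0.22 for genes flagged as detected. They were 0.053, 0.41 and 0.38 with quantile normalization, 0.59, 0.59 and 0.55 with normexp, and 0.035, 0.93 and 0.53 in the deposited value table. With no filter, where undetected miRNAs enter at a floor, they were 1.46, 1.66 and 1.45. As reported, the members were the 59th, 40th and 60th of the 137 differences from the highest down.

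**Figure D3:**
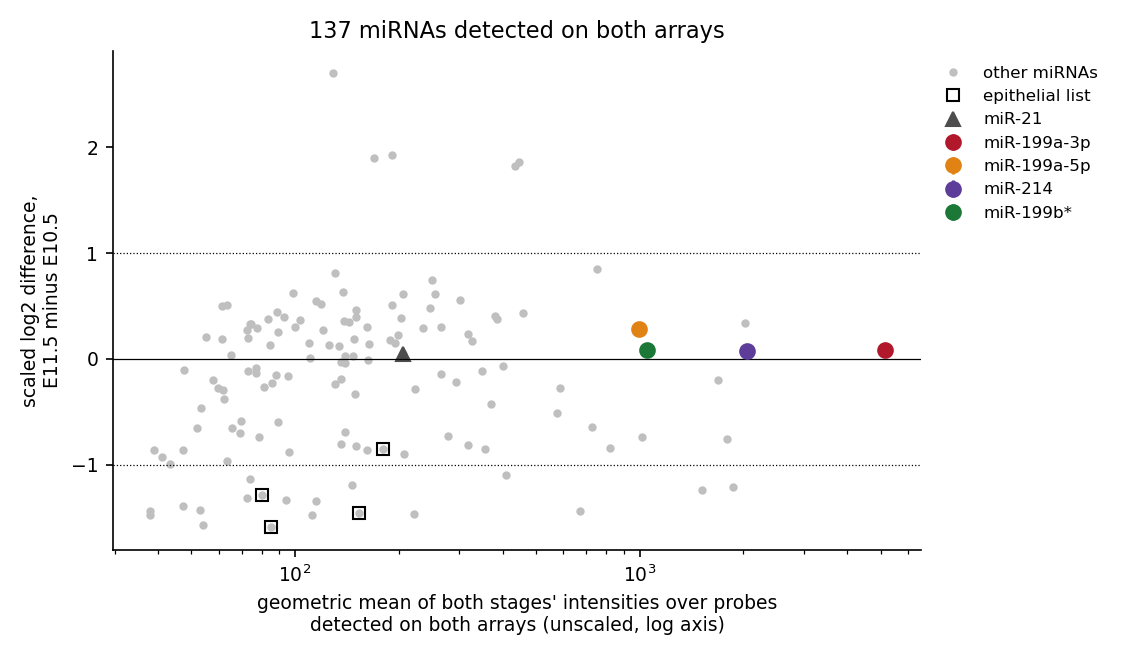
Scaled log2 difference, E11.5 minus E10.5, against the geometric mean of the unscaled E11.5 and E10.5 intensities over probes detected on both arrays (log axis) for the 137 miRNAs detected on both arrays, with bars of 1 spot SE on the coloured points (shorter than the symbols) and dotted lines at 2-fold. The 3 members and miR-199b* sit at the bright end between 0.07 and 0.28, and the 4 squares of the epithelial list lie between -1.59 and -0.85.

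Among the members, the highest and the lowest difference, those of miR-199a-5p and miR-214, were 0.21 ± 0.023 apart (SE over spots). miR-214 and miR-199a-3p, whose probes also match RNA from Mir199a-1 and Mir199b, were 0.0098 ± 0.014 apart, which is within spot noise. The 2 arms of miR-199a were 0.20 ± 0.021 apart, with the 5p arm the higher. Both 5p probes gave this (0.28 and 0.28), against 0.10 and 0.06 for the 3p probes and 0.07 and 0.08 for the miR-214 probes. The gap between the arms is over 9 times its spot SE, but spot noise is not the noise between arrays. With normexp background correction the 2 arms were level, at 0.30 for the 5p arm and 0.31 for the 3p arm.

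miR-199b* is the 5p arm of Mir199b, from the Dnm1 locus, and is the closest relative of miR-199a-5p on the array. The stretch of the Mir199b precursor that aligns with miR-199a-5p differs from it by a single base, C10U, counted from the 5′ end with the miR-199a-5p base first, which the capitals mark.
miR-199a-5p: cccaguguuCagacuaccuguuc
Mir199b, same stretch: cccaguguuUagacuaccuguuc
The differing base lies outside the seed, and both stretches carry the same bases 2 to 8. The 22-base probe of miR-199b* had 2582 ± 72.4 at E11.5 (SD, 15 spots) and 926 ± 22.4 at E10.5 (19 spots). Its 21-base probe had 871 ± 46.3 at E11.5 (20 spots) and 350 ± 15.3 at E10.5 (19 spots). Its scaled difference was 0.08 ± 0.013, within 1 spot SE of that of miR-199a-3p and 0.20 below that of miR-199a-5p. Its own probes were at 0.17 and 0.0024, so the 2 probes of 1 miRNA were nearly as far apart as the 2 arms of miR-199a. Whether the probes of either 5p arm read the other's RNA across the mismatch was not tested.

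miR-214*, the 5p arm of Mir214 (miR-214-5p), was detected at E11.5 only and by 1 of its 4 probes. That 17-base probe, the longest, had 59.3 ± 1.64 at E11.5 (SD, 7 spots, all well above background) and 19.0 ± 5.32 at E10.5 (10 spots, none well above background). Against the lowest detected probe at E10.5 (30.9), it was at least 1.92-fold brighter at E11.5 before scaling, and after scaling there was no bound above 1. Its other 3 probes lay between -2.80 and 3.07 at E11.5 and between -4.31 and -0.85 at E10.5, and none was detected. miR-761, which shares the seed of miR-214, had no probe well above background on either array, with 4 probes between -4.45 and -2.65 at E11.5 and between -6.64 and -3.24 at E10.5.

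The miRNAs whose difference was nearest to the members' mean of 0.14, over the 2 arrays, were miR-720 (0.15), miR-30c (0.14), miR-532-5p (0.15), miR-543 (0.13) and miR-140* (0.13). All 5 were dimmer than the members, with a mean over the probes detected on both arrays of 140 to 323 at E11.5 and 51.4 to 118 at E10.5. With 2 arrays this likeness is a single number per miRNA, and 21 of the 137 miRNAs lay between the lowest and the highest member.

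Other miRNAs linked to mesenchyme and smooth muscle gave the members few companions. Of miR-21, miR-143, miR-145 and miR-152, miR-21 alone was detected at both stages, at a level of 330 at E11.5, against 129 at E10.5. Its scaled difference was 0.05 ± 0.021. miR-143 and miR-152 were detected at E11.5 only, with levels of 57.1 and 63.5. miR-145, which shares a transcript with miR-143, had no probe well above background on either array (brightest probe 0.34 at E11.5 and -0.42 at E10.5). Counting the members and the other arms, 8 of the 9 mesenchymal names on the array were seen on the E11.5 array and 5 on the E10.5 array. Of all miRNAs on the array, 18.4% were detected at E11.5 and 13.3% on the dimmer E10.5 array. The 5 mesenchymal names measured at both stages were the 3 members, miR-199b* and miR-21. All 5 were above 0, where 47.4% of the 137 miRNAs were. Their median, 0.08, is the value of miR-199a-3p itself. The members were already counted above, so the list adds only miR-199b* and miR-21 to that count. Of the 5 names, miR-199a-3p, miR-214 and miR-199b* lay below 0 under the total gene signal, where miR-199b* was at -0.026. The same 3 lay below 0 where every spot had to be detected, with miR-199b* at -0.042. Without the dimmest 25% of the miRNAs, miR-199a-3p and miR-214 lay below 0 and miR-199b* was at 0.0026. The values of miR-21 under these alternatives were not listed. As reported it was the lowest of the 5, so its direction is not shown to hold. The name miR-199b itself has no probes of its own, as its probes are those of miR-199a-3p.

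Markers of other cell types were present in the same RNA. Of 7 epithelial miRNAs, 5 reached detection at E11.5 and 4 reached it at E10.5, with summed levels of 553 and 485, and the 4 measured at both stages differed by -1.59 (miR-200c) to -0.85 (miR-205) as scaled. The endothelial miR-126-3p (378 at E11.5 and 267 at E10.5) was at -0.81 and the erythroid miR-451 (114 and 69.8) at -0.60. These directions depend on the scaling. Unscaled, miR-126-3p was at 0.50, miR-451 at 0.71, miR-205 at 0.46 and miR-429 at 0.03, while miR-200b (-0.15) and miR-200c (-0.28) stayed below 0. The 4 skeletal muscle miRNAs miR-1a, miR-133a, miR-133b and miR-206 were all detected at E11.5, with a summed level of 529, and none at E10.5. Of 5 leukocyte and 3 neuronal miRNAs, miR-223 (36.7) and miR-128 (74.3) were detected, both at E11.5 only. Their brightest E10.5 probes, at 25.4 and 24.5, lay just under the lowest detected probe of that dimmer array (30.9). A gain between the stages is therefore not shown for them. The part of these cell types in the members' values was not tested.

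The promoter of Dnm3os is shown as the sequence at the start of the host transcript of Mir199a-2 and Mir214, and its part in the values was not tested. It is RefSeq's window of 250 bases before to 50 after the start, chr1:162217373-162217672 on the plus strand (GRCm38.p6). Capitals mark E-box letters (CANNTG, which reads the same on both strands) and 1 match to the CArG box of serum response factor.
Dnm3os promoter: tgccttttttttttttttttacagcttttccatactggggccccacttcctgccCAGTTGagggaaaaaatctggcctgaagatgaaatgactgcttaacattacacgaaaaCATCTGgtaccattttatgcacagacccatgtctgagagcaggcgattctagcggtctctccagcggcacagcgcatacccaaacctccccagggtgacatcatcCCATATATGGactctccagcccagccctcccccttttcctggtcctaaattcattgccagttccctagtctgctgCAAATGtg
The window holds 3 E-boxes. At least 1 stands in 72.3% of 32851 promoter windows, and the share of windows with 3 was not counted. The middle one, CATCTG, searched for on either strand, stands in 17.2% of the windows. A CArG box, searched for after the sequence was seen, stands in 1.63% and does not overlap an E-box here. These are matches of letters, and no binding was measured.

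The deposited value table, the authors' own processed values, gave the members in the same order. miR-199a-3p had the highest value in both columns, 3256 at E11.5 and 3256 at E10.5. miR-214 had 1356 at E11.5 and 964 at E10.5, and miR-199a-5p had 813 at E11.5 and 436 at E10.5. Sorted from the highest down, the columns held the same value at each of the 188 places above the floor of 0.1 at E10.5 (within 0.01%), so a value there is fixed by the miRNA's rank. miR-199a-3p, first on both arrays, thus has a difference of 0 in that table by construction, while the table's log2 differences were 0.49 for miR-214 and 0.90 for miR-199a-5p, which moved up in rank.

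**Figure D4:**
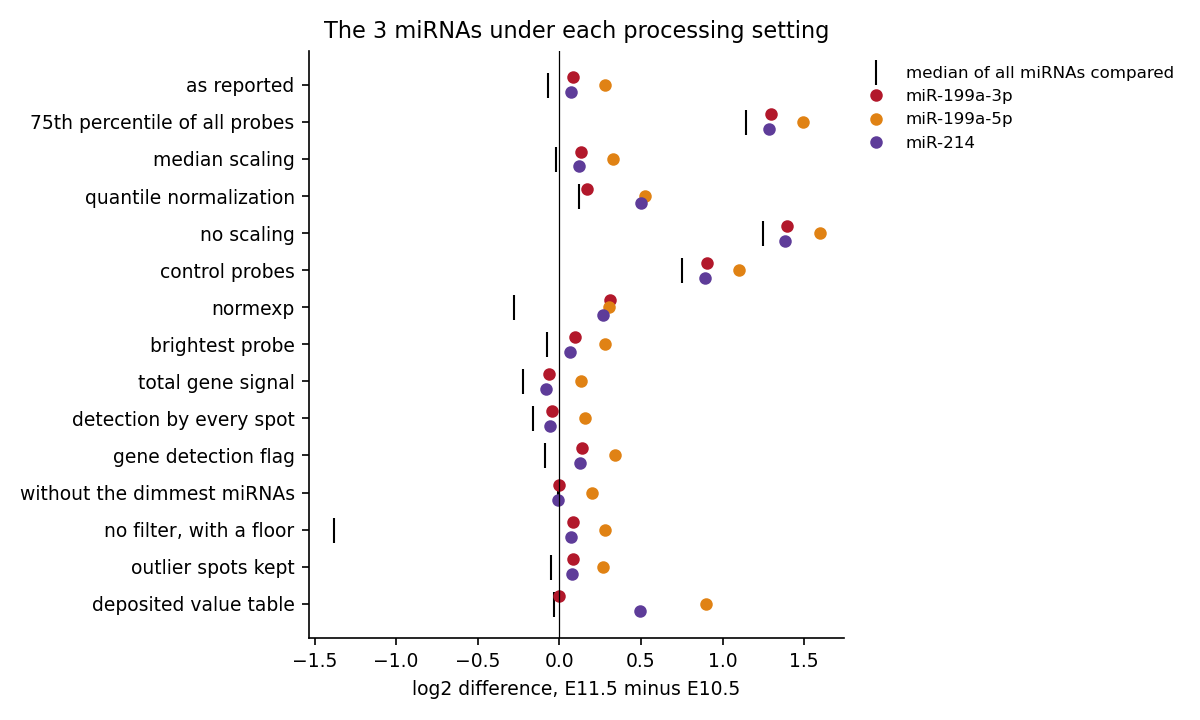
Log2 difference, E11.5 minus E10.5, of the 3 members under the reported setting and 14 alternatives, with the median of all miRNAs compared as a black tick. The members move with the tick under the scalings by 1 factor, and the deposited value table spreads them from 0 to 0.90.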

How the data were processed

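The deposited scanner files hold an intensity per spot, background-subtracted by spatial detrending and not normalized between arrays, per the file headers, whose software entry is Feature Extraction 10.7.1.1 and whose genome entry is mm9. The submitters' processing notes name Agilent Feature Extraction 9.5.1.1. The authors' value table is in linear intensity units, and the sources used here do not name its normalization. Its columns held the same sorted values at the 188 places compared, which is what quantile normalization produces.

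Outlier-flagged spots were dropped and spots averaged per probe. A probe was detected where at least 50% of kept spots were well above background. Log2 values were taken after dividing by the 75th percentile over probes detected on both arrays, and a miRNA's difference is the mean over such probes. No test was possible; counts used a 2-fold threshold. The members, lists and naming rule (members, their other arms, miRNAs sharing a seed, rank neighbours, 5 nearest differences) were chosen with earlier results of these data known. The steps were tested on simulated data. Alternatives covered scaling, background, probes, detection, filters, outliers and the value table. The number of arrays limits the precision. limma 3.58.1 (R 4.3.3) gave the normexp values, and pandas 2.3.3 (Python 3.11.15) all others.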

Additional observations from a re-analysis of the deposited data

How the results depend on the processing

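No paired analysis was possible because each stage has 1 array. The differences of miR-199a-3p, miR-199a-5p and miR-214, in that order, were 1.39, 1.59 and 1.38 unscaled, 1.30, 1.50 and 1.29 when the percentile was taken over every probe, and 0.90, 1.1 and 0.89 with the 20 control probes detected on both arrays, which put 3, 3 and 1 of them past 2-fold. They were 0.13, 0.33 and 0.12 with the median, 0.14, 0.34 and 0.13 for genes flagged as detected, 0.17, 0.53 and 0.50 with quantile normalization, 0.31, 0.30 and 0.27 with normexp, and 0, 0.90 and 0.49 with the value table. They were -0.045, 0.15 and -0.055 where every spot had to be detected, -0.063, 0.13 and -0.079 using the total gene signal, and -0.00068, 0.20 and -0.011 without the dimmest miRNAs. The range over the 3 was 0.043 with normexp, 0.35 with quantile normalization and 0.90 with the value table, against 0.21 as reported. Settings that multiply an array by 1 factor shift the 3 equally by construction. The every-spot rule, the gene flag and leaving out the dimmest miRNAs did so too, with the range at 0.21. They left the members' own probe values as they were and changed only which probes set the factor. The cause of the remaining shifts was not tested. miR-199a-3p stayed at rank 1 on both arrays in 14 of 14 alternatives. With the brightest probe miR-199a-5p was at ranks 6 (E11.5) and 9 (E10.5) and miR-214 at rank 6 at E10.5, and with outlier spots kept miR-199a-5p was at rank 8 at E11.5. Without replicate arrays, no setting shows how far a difference of 0.1 to 0.3 would vary between pools.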
